A study of Solea senegalensis with 15 samples.

Results

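The 58 genes described here encode enzymes of glycolysis and the citrate cycle in the testis of the Senegalese sole (Solea senegalensis), with the proteins that regulate entry into both pathways and 4 genes of gluconeogenesis. They were chosen by symbol: a pattern over enzyme names matched 63 of the 28921 genes counted, and 58 of these had at least 50 reads in at least 1 of the 15 fish, out of 21227 genes that passed the same minimum. The 5 genes below it were fbp1b, gpib and pkmb, which had few reads, and mdh2 and pgam2, which had no read in any fish. The spans of mdh2 and pgam2 each overlap another gene, so their lack of reads does not show that they were not transcribed. Of the 58 genes, 55 have a place in the pathways, counting cytosolic forms of citrate cycle enzymes. The other 3 share only the start of a symbol with them: pkmyt1, a kinase that holds Cdk1 inactive before cell division, pgam5, a phosphatase of mitochondria, and dld, a ligand of the Notch receptor. Genes listed under a locus identifier in place of a symbol, which are 39.85% of the tested genes, could not be found by this rule, so steps with no matched symbol, such as fumarase and mitochondrial aconitase, are not covered here.

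Glycolysis splits glucose in the cytosol into pyruvate, with a small yield of ATP. Pyruvate is then either reduced to lactate by lactate dehydrogenase or taken into mitochondria, where the pyruvate dehydrogenase complex turns it into acetyl-CoA for the citrate cycle, and pyruvate dehydrogenase kinases switch that complex off. In the mammalian testis, Sertoli cells take up glucose and release lactate, which spermatocytes and spermatids prefer as fuel, and sperm carry their own forms of several glycolytic enzymes. Follicle-stimulating hormone acts on Sertoli cells and luteinizing hormone on Leydig cells in mammals, while in fish the receptors are less strictly divided. The comparisons ask which of these enzymes changed in transcript level after each hormone.

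The sequenced fish were 2-year-old males, first-generation offspring of parents caught in the wild, 5 from each of 3 groups. The study injected more males per group than these 5, and the labels do not say how the 5 were chosen. The rFsh group received recombinant follicle-stimulating hormone of sole (rFsh) at 18 µg/kg, the rLh group recombinant luteinizing hormone (rLh) at 18 µg/kg and the saline group saline, each as a weekly injection into muscle for 6 weeks. RNA of 1 testis sample per fish gave 1 library, so the fish is the replicate. The 5 fish of a group are named by their label numbers, which are 61, 62, 64, 68 and 69 for rFsh and 63, 64, 66, 67 and 68 for both rLh and saline, and lists of values keep that order. Levels are CPM, the counts of a gene per 1000000 reads of its library, scaled by the trimmed mean of M values. The testis is a mixture of cells, so fewer cells of a type and less RNA per cell cannot be told apart in these values. Reads per gene also depend on transcript length, which was not known, so a level is read across fish and not as more or less transcript than another gene has. Where the reads of 2 genes are divided by each other, only the change of that ratio between fish is read.

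Libraries held 50722658 to 109801527 assigned reads, and the median library had 61235708 in the rFsh group, 60916260 in the rLh group and 79879064 in the saline group. The 58 genes took 0.583 to 0.672% of the reads of a library in the rFsh fish, 0.607 to 0.651% in the rLh fish and 0.618 to 0.639% in the saline fish. In a principal component analysis of all tested genes, 2 fish stood apart from their groups on the first component, which held 19.6% of the variance. The fish rFsh 69 was at 7.84 where the other rFsh fish ran from -43.2 to -14.5, and saline 68 was at -25.3 where the other saline fish ran from 20.5 to 42.9. On the second component, which held 15.3% of the variance, rLh 68, rFsh 62 and saline 67 stood apart. There rLh 68 was at 7.85 where the other rLh fish ran from -39.1 to -17.0. The fish rFsh 62 was at -15.7 where the other rFsh fish ran from -0.0602 to 31.5. The fish saline 67 was at 33.8 where the other saline fish ran from -10.9 to 11.3. Markers of Sertoli, Leydig and germ cells were present in every group, except that the Sertoli gene fshr and the spermatocyte gene sycp3 had no read in any fish. Summed over the 13 tested of 14 spermatocyte markers, levels were 1176 to 1482 CPM in the rFsh fish, with rFsh 69 lowest, 1114 to 1306 CPM in the rLh fish and 973 to 1126 CPM in the saline fish. The 8 Leydig markers summed to 963 CPM in rFsh 69 against 1693 to 3196 CPM in the other rFsh fish, and to 2543 CPM in saline 68 against 1013 to 1728 CPM in the other saline fish. The 12 tested Sertoli markers summed to 4463 CPM in rFsh 69 against 3020 to 3640 CPM in the other rFsh fish. Its 21 tested spermatid and sperm markers summed to 995 CPM against 729 to 983 CPM in the others. Its spermatogonia markers, at 1545 CPM, lay within the 1205 to 1730 CPM of the other rFsh fish. Leucocyte markers and those of endothelium and smooth muscle were lowest of the group in rFsh 69, at 394 and 908 CPM. The 6 tested of 8 red blood cell markers summed to 80.8 CPM in rLh 64 against 24.3 to 29.1 CPM in the other rLh fish. The 12 tested of 15 liver and plasma markers summed to 183 CPM in saline 67 against 94.7 to 125 CPM in the other saline fish. The 14 tested of 22 skeletal muscle markers, of which actn3b and mylpfa had no read in any fish, summed to 198 to 258 CPM in the rFsh fish, 171 to 228 CPM in the rLh fish and 146 to 198 CPM in the saline fish. Each of these sums is weighted to the genes with the most reads. Among the Sertoli markers, the highest count in any fish was 272207 for gsdf and 48711 for tjp1a, the next. Among the tested muscle markers, it was 7228 for neb and 63 for acta1b. What part these cell markers had in the results below was not tested.

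Over all 15 fish, none of the 58 genes passed the test in any of the 3 comparisons. The edgeR quasi-likelihood test with p-values adjusted by Benjamini-Hochberg across the 21227 tested genes called 10 genes (0.0471%) in rFsh against saline, and 0 genes (0%) in rLh against saline and in rLh against rFsh. At an unadjusted p below 0.05, rFsh against saline held 12 of the 58 genes (20.7%), close to the 17.2% of all tested genes, with 8 higher after rFsh (13.8%, beside 9.53% of all genes; aco1, pck2, pdha1b, pdhx, pdk1, pfkpa, pkma and pkmyt1) and 4 lower (6.90%, beside 7.63%; gapdhs, ldhba, ldhd and pfkla). The same threshold held 8 of 58 genes (13.8%) in rLh against saline, where 13.2% of all genes passed it, with 3 higher after rLh (5.17%, beside 5.89% of all genes; aco1, eno3 and ogdhl) and 5 lower (8.62%, beside 7.31%; gapdhs, ldha, ldhd, pfkla and suclg2). In rLh against rFsh it held 7 of 58 genes (12.1%), beside 9.91% of all genes. DESeq2 on the same genes called 1 of the 58 in rFsh against saline, ldhba, where it called 2.93% of all tested genes, and 0 of the 58 in rLh against saline (0.221% of all genes) and in rLh against rFsh (0.636%).

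Fold changes were small. The median log2 fold change of the 58 genes was 0.00 for rFsh against saline and -0.02 for rLh against saline, where the median over all tested genes was 0.01 in both. It was -0.05 for rLh against rFsh, where all genes had -0.01. The size of the log2 fold change stayed below 0.5 for 54 of 58 genes after rFsh and for 55 after rLh. Of all 21227 tested genes, 19174 after rFsh and 19688 after rLh also stayed below it, so small changes are not particular to the 58. Both hormone comparisons use the same 5 saline fish, so their values are not independent of each other. The plot of fold changes in pathway order has the 3 lactate dehydrogenase genes below 0 in both panels, both PFKFB genes below 0 after rLh and all 4 genes of gluconeogenesis above 0 after rFsh. The larger arms spread to both sides. Above 0 were 11 of the 21 glycolysis genes after rFsh and 12 after rLh. So were 6 and 5 of the 15 genes counted with the citrate cycle, cytosolic forms included. Of all 21227 tested genes, 10856 were above 0 after rFsh and 10953 after rLh.

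**Figure D1:**
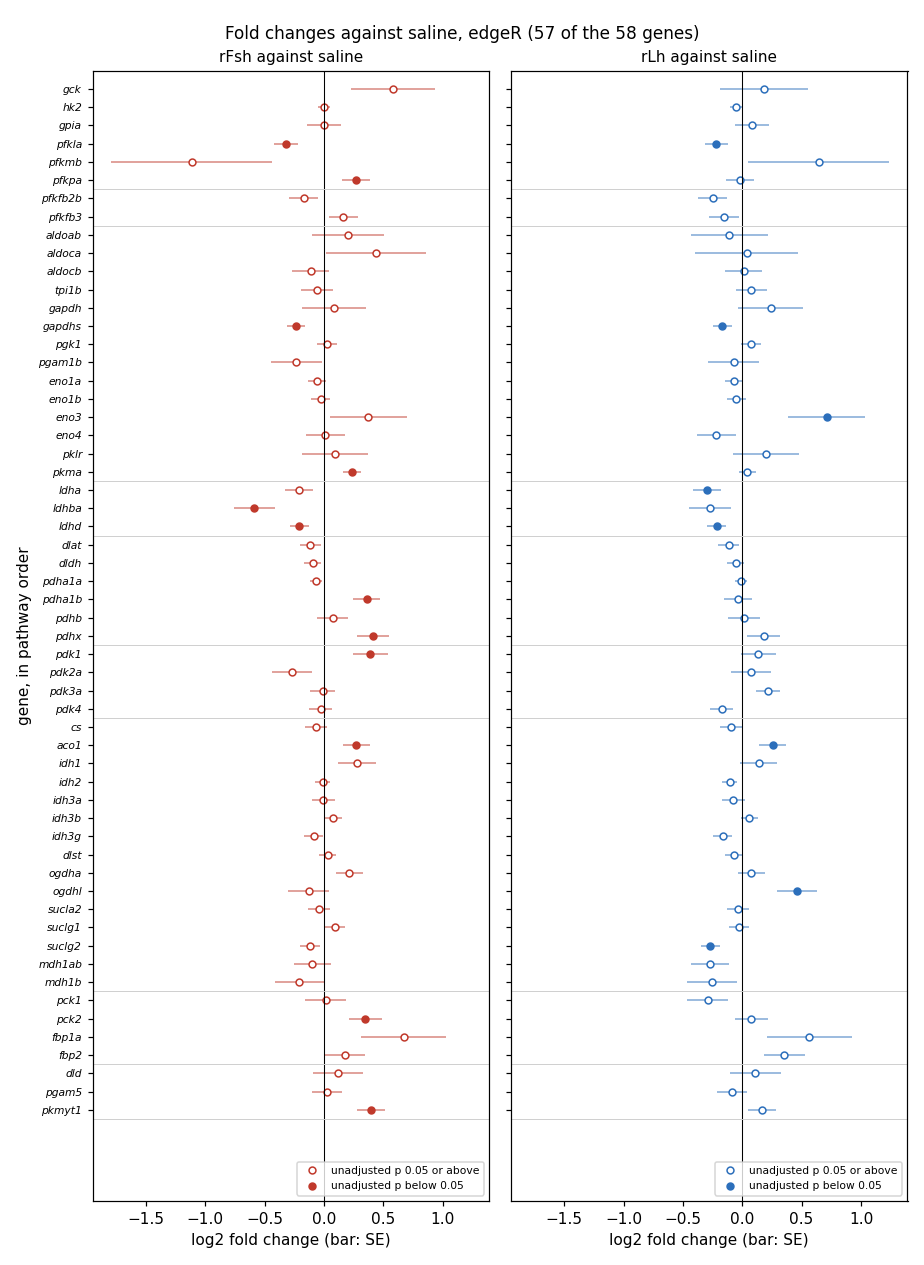
Log2 fold change of 57 of the 58 genes with its standard error (bar), for rFsh against saline (left, red) and rLh against saline (right, blue), in pathway order from hexokinase at the top to the 3 genes of other function at the bottom. Filled points have an unadjusted p below 0.05; the genes spread to both sides of 0, and the medians over all 58 are 0.00 (rFsh) and -0.02 (rLh).

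The first steps of glycolysis began with the steadiest gene of the 58. Hexokinase 2 (hk2), which traps glucose in the cell as glucose-6-phosphate, was at 69.5, 73.4, 70.1, 74.8 and 71.1 CPM in the rFsh fish, 69.6, 73.7, 68.6, 67.4 and 65.9 CPM in the rLh fish and 71.3, 73.9, 69.3, 72.4 and 71.6 CPM in the saline fish. All 15 fish lay within a factor of 1.13 of each other and the groups overlapped throughout, with a log2 fold change of 0.00 after rFsh and -0.05 after rLh. Glucokinase (gck), a hexokinase of low affinity, varied far more, over 3.61 to 9.20 CPM in the rFsh fish, 3.88 to 6.36 CPM in the rLh fish and 1.19 to 6.73 CPM in the saline fish, and its groups overlapped. Glucose-6-phosphate isomerase (gpia) was at 168, 226, 181, 177 and 119 CPM in the rFsh fish, 189.6, 213, 161, 209.5 and 149 CPM in the rLh fish and 189.7, 141, 188, 184 and 169 CPM in the saline fish. Its lowest value was that of rFsh 69, and the group means of 174 ± 38.2 CPM after rFsh, 184 ± 28.7 CPM after rLh and 174 ± 20.3 CPM in saline (SD, n = 5 each) differed by less than the spread within groups.

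Phosphofructokinase, the main control point of glycolysis, was represented by 3 genes that differed in pattern. The liver-type gene pfkla lies on linkage group 2, 13896423 to 13908747 in the assembly IFAPA_SoseM_1, which all positions here refer to. Its span overlaps another gene, so its counts may lack reads from a shared stretch. The levels of pfkla were 128, 128, 158, 143 and 129 CPM in the rFsh fish, 160.2, 125, 153, 140.3 and 159 CPM in the rLh fish and 172, 177, 179, 195 and 134 CPM in the saline fish. Every rFsh fish lay below the 4 saline fish 63, 64, 66 and 67, whereas saline 68 lay within the rFsh range, and the rLh fish also lay below those 4 saline fish, over much the same range as the rFsh fish. The log2 fold change was -0.32 for rFsh (edgeR adjusted p = 0.162) and -0.22 for rLh (adjusted p = 0.37). Without saline 68, pfkla fell by 0.40 on the log2 scale after rFsh (edgeR adjusted p = 0.0374). Over 28 alternatives the value for rFsh ran from -0.40 to -0.09, and the adjusted p ran from 0.0103 to 0.849. It was past the threshold in 3, all of which left out saline 68. The values -0.09 and 0.849 came with the fish number as a block, where only rFsh 64 and rFsh 68 inform the rFsh side. The platelet-type gene pfkpa, chosen for full values after they were seen, was at 178, 189, 163, 179.8 and 118 CPM in the rFsh fish, 125, 131, 134, 133 and 155 CPM in the rLh fish and 123.2, 125, 125, 166 and 147 CPM in the saline fish. The rFsh fish 61, 62 and 68 lay above all rLh and saline fish, rFsh 64 lay below the highest saline fish, and rFsh 69 lay below every other fish of the series. The log2 fold change was 0.27 for rFsh (adjusted p = 0.259), and pfkpa rose by 0.37 without rFsh 69 (edgeR adjusted p = 0.0396). Over 28 alternatives the adjusted p ran from 0.0214 to 0.460 and passed in 2, both without rFsh 69. The muscle-type gene pfkmb was low and erratic, at 1.27, 5.60, 3.14, 2.40 and 3.06 CPM in the rFsh fish, 15.7, 7.46, 7.26, 15.1 and 5.401 CPM in the rLh fish and 20.7, 4.48, 1.40, 1.31 and 4.22 CPM in the saline fish. It spanned a factor of 16.3 over the 15 fish, the most of the 58 genes, with its highest value in saline 63.

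The bifunctional PFKFB enzymes make and remove fructose-2,6-bisphosphate, which activates phosphofructokinase. The gene pfkfb2b was at 75.4, 65.5, 94.5, 76.0 and 95.9 CPM in the rFsh fish, 91.2, 63.1, 73.4, 76.5 and 82.0 CPM in the rLh fish and 107, 90.0, 88.6, 76.6 and 97.3 CPM in the saline fish. Its saline mean was the highest of the 3, and the groups overlapped (log2 fold change -0.17 after rFsh and -0.25 after rLh). The gene pfkfb3 was at 69.9, 57.1, 78.2, 81.2 and 47.3 CPM in the rFsh fish, 56.1, 44.6, 56.1, 52.8 and 58.1 CPM in the rLh fish and 58.1, 57.9, 57.8, 61.5 and 62.7 CPM in the saline fish. Here 3 rFsh fish lay above all others, rFsh 69 lay near the bottom, and the saline fish were within a narrow band that overlapped both hormone groups.

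The steps in the middle of glycolysis differed little between groups. Aldolase, which splits the 6-carbon sugar, was represented by aldocb, which was at 132, 134, 111, 112 and 126 CPM in the rFsh fish, 120.0, 168, 102, 160.1 and 122 CPM in the rLh fish and 87.9, 125, 135, 161 and 157 CPM in the saline fish. The saline fish covered nearly the whole range of the treated fish. The related genes ran over 3.10 to 9.76 CPM in the rFsh fish, 1.97 to 8.78 CPM in the rLh fish and 2.22 to 9.41 CPM in the saline fish for aldoca and 0.232 to 0.799 CPM in the rFsh fish, 0.180 to 0.680 CPM in the rLh fish and 0.356 to 0.523 CPM in the saline fish for aldoab, with overlapping groups in each. Triosephosphate isomerase (tpi1b) was at 233, 301, 230.4, 244 and 169 CPM in the rFsh fish, 257, 329, 248, 248 and 209.5 CPM in the rLh fish and 249, 227, 247, 276 and 226 CPM in the saline fish. Its 2 extremes, rLh 64 at the top and rFsh 69 at the bottom, were both treated fish. Phosphoglycerate kinase (pgk1), the first step to return ATP, was at 322, 376, 358, 338 and 281 CPM in the rFsh fish, 341, 389, 343, 345 and 314 CPM in the rLh fish and 337, 298, 348, 358 and 309 CPM in the saline fish, with group means of 335 ± 36.3 CPM after rFsh, 346 ± 27.1 CPM after rLh and 329.9 ± 25.7 CPM in saline (SD, n = 5 each). These values overlapped fully, with log2 fold changes of 0.02 after rFsh and 0.07 after rLh.

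Glyceraldehyde-3-phosphate dehydrogenase had 2 genes. The gene gapdhs, named after the form found in mammalian sperm (linkage group 9, 13803320 to 13814985), was at 451, 442, 478, 475 and 418 CPM in the rFsh fish, 514, 478, 429.8, 520.3 and 428 CPM in the rLh fish and 558, 484, 601, 524 and 501 CPM in the saline fish. All 5 rFsh fish lay below all 5 saline fish, and the rLh fish overlapped both. The log2 fold change was -0.24 for rFsh (SE 0.08, adjusted p = 0.174) and -0.17 for rLh (SE 0.08, adjusted p = 0.377), neither past the threshold. Among the 58 genes, 2 (3.45%) had rFsh and saline fish that did not overlap in either direction, gapdhs and ldhd, where 1.72% of all tested genes did. The common form gapdh spread over 33.6 to 71.8 CPM in the rFsh fish, 37.4 to 70.4 CPM in the rLh fish and 28.1 to 66.03 CPM in the saline fish and followed no group.

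Further down the pathway, phosphoglycerate mutase (pgam1b) was at 107, 121, 84.0, 101 and 58.8 CPM in the rFsh fish, 113, 148, 95.6, 104 and 67.9 CPM in the rLh fish and 105, 83.5, 125, 150.1 and 89.6 CPM in the saline fish. Its lowest fish were rFsh 69 and rLh 68, and the saline fish covered most of the range. Enolase had 4 genes, of which eno1a was at 159, 176, 162, 167 and 159 CPM in the rFsh fish, 169.8, 188, 154, 162 and 139.8 CPM in the rLh fish and 165, 173, 185, 179.8 and 154 CPM in the saline fish. All groups overlapped, and its sister eno1b was as even, at 128 to 162 CPM in the rFsh fish, 138 to 157 CPM in the rLh fish and 126 to 163 CPM in the saline fish. The muscle form eno3 was at 8.78, 10.1, 10.0, 12.3 and 5.37 CPM in the rFsh fish, 10.2, 10.6, 10.99, 18.7 and 7.67 CPM in the rLh fish and 8.18, 6.78, 4.97, 2.998 and 12.8 CPM in the saline fish, given after its values were seen. It averaged 9.32 ± 2.56 CPM after rFsh, 11.7 ± 4.17 CPM after rLh and 7.15 ± 3.72 CPM in saline (SD, n = 5 each), with rLh 67 highest and saline 67 lowest, and a log2 fold change of 0.71 for rLh (SE 0.32, adjusted p = 0.367). Pyruvate kinase, the last step, was represented by pkma (linkage group 7, 14697535 to 14711959), at 226, 271, 287, 266 and 274 CPM in the rFsh fish, 228, 215, 232, 244 and 237 CPM in the rLh fish and 232, 217, 206, 216 and 251.6 CPM in the saline fish. The rFsh fish 62, 64, 68 and 69 lay above every other fish, and rFsh 61 lay among the saline fish. The log2 fold change was 0.24 for rFsh (SE 0.07, adjusted p = 0.161) and 0.04 for rLh (SE 0.07, adjusted p = 0.826). The gene pklr, the form of liver and red cells in mammals, ran over 74.6 to 149 CPM in the rFsh fish, 106 to 149.6 CPM in the rLh fish and 72.6 to 227 CPM in the saline fish. The highest of these was saline 68, and the other saline fish lay between 72.6 and 92.3 CPM, below every treated fish but rFsh 69.

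**Figure D2:**
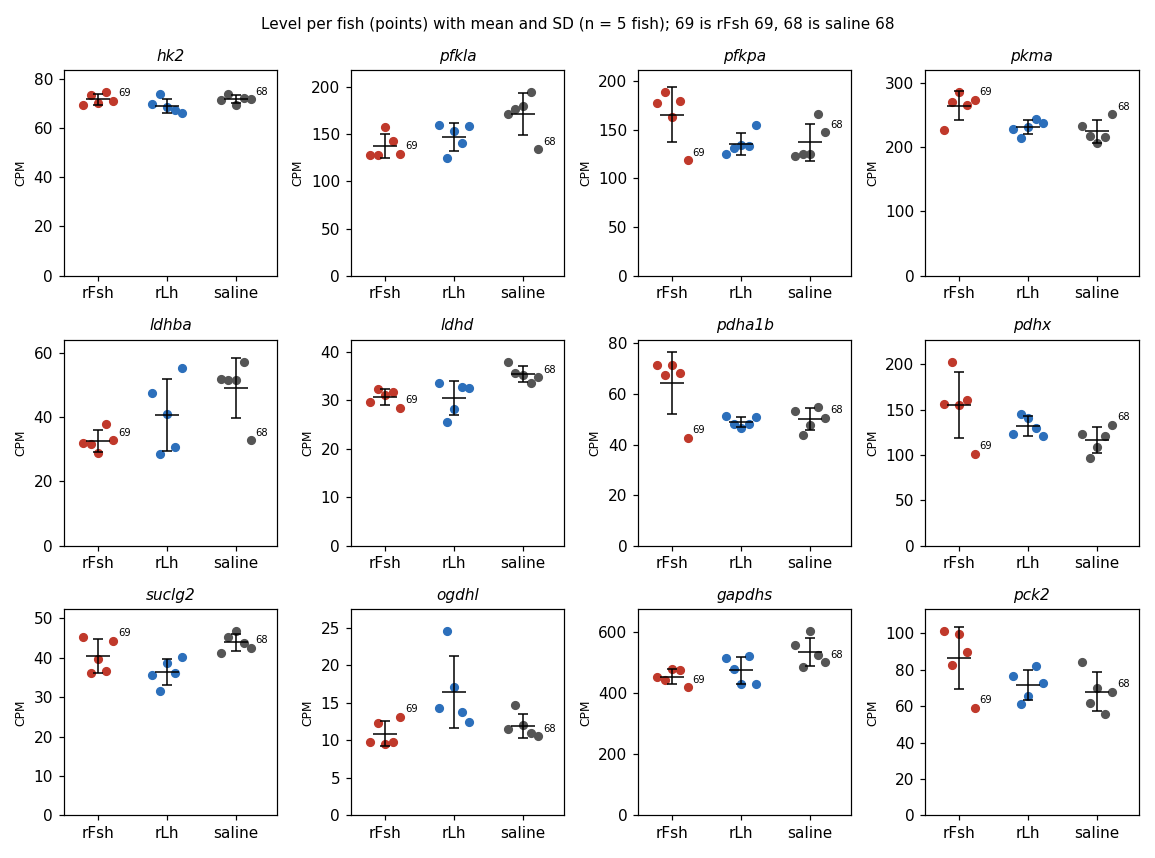
CPM of 12 of the genes in each fish (points), with the group mean and SD (n = 5 fish), for rFsh (red), rLh (blue) and saline (grey). In hk2 all fish lie between 65.9 and 74.8 CPM, in pdha1b and pdhx the labelled fish rFsh 69 lies below the other rFsh fish, and in ldhba the labelled fish saline 68 lies among the rFsh fish.

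Lactate dehydrogenase, made of A and B subunits, interconverts pyruvate and L-lactate, while ldhd encodes the enzyme for D-lactate. The 3 genes ldha, ldhba and ldhd all had a log2 fold change below 0 after both hormones. So had 10371 of all 21227 tested genes after rFsh and 10274 after rLh, against the same saline fish. The B-subunit gene ldhba, the form that in mammals prevails in tissues that use lactate (linkage group 3, 22092006 to 22102324), was at 32.0, 31.8, 28.7, 38.0 and 32.8 CPM in the rFsh fish, 47.6, 28.6, 40.9, 30.6 and 55.4 CPM in the rLh fish and 51.8, 51.5, 51.5, 57.4 and 32.8 CPM in the saline fish. All rFsh fish lay below the saline fish 63, 64, 66 and 67, and saline 68 lay among the rFsh fish, while the rLh fish spread over the range of both. Its means were 32.7 ± 3.37 CPM after rFsh, 40.6 ± 11.3 CPM after rLh and 49.0 ± 9.38 CPM in saline (SD, n = 5 each). Its log2 fold change for rFsh, -0.59 (SE 0.17), was the most negative of the 58 genes after that of the erratic pfkmb, and it passed the threshold in DESeq2 (adjusted p = 0.0460) but not in edgeR (adjusted p = 0.151). Without saline 68 it passed in edgeR as well, with a log2 fold change of -0.70 (adjusted p = 0.0415). It passed in 4 of 28 alternatives, with adjusted p from 0.00180 to 0.570. The value 0.570 came with the fish number as a block, where only rFsh 64 and rFsh 68 inform the rFsh side. For rLh the log2 fold change was -0.27 (SE 0.17, edgeR adjusted p = 0.495).

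The A-subunit gene ldha, the form that in mammals prevails in muscle and other tissues that make lactate, was at 262, 217, 226, 249 and 259.8 CPM in the rFsh fish, 244, 223, 205, 237 and 234 CPM in the rLh fish and 260.0, 237, 319, 367 and 222 CPM in the saline fish. The saline fish 66 and 67 lay above all treated fish, and the remaining saline fish lay within the treated range. For ldha the log2 fold change was -0.21 for rFsh (SE 0.12, adjusted p = 0.372) and -0.30 for rLh (SE 0.12, adjusted p = 0.352). The gene ldhd, whose mitochondrial enzyme oxidizes D-lactate in place of the common L form (linkage group 10, 24495471 to 24504694), was at 29.6, 32.4, 31.0, 31.7 and 28.4 CPM in the rFsh fish, 33.5, 25.5, 28.1, 32.6 and 32.5 CPM in the rLh fish and 37.9, 35.5, 35.1, 33.6 and 34.7 CPM in the saline fish. All 10 treated fish lay below all 5 saline fish, although the nearest fish, rLh 63 at 33.5 CPM and saline 67 at 33.6 CPM, were almost level. The log2 fold change of ldhd was -0.21 for rFsh (SE 0.08, adjusted p = 0.212) and -0.22 for rLh (SE 0.08, adjusted p = 0.344). In rLh against saline, 2 of the 58 genes (3.45%) had groups that did not overlap, ldhd and suclg2, both lower, where 2.1% of all tested genes did in either direction.

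The pyruvate dehydrogenase complex carries pyruvate into the citrate cycle as acetyl-CoA. Its catalytic E1 alpha subunit had 2 copies among the matched symbols. The copy pdha1b (linkage group 1, 38614140 to 38622187) was at 71.7, 67.5, 71.6, 68.5 and 42.7 CPM in the rFsh fish, 51.2, 48.2, 46.6, 48.0 and 50.8 CPM in the rLh fish and 53.4, 43.9, 47.9, 55.0 and 50.7 CPM in the saline fish. The rFsh fish 61, 62, 64 and 68 lay between 67.5 and 71.7 CPM, above all rLh and saline fish, which reached 55.0 CPM at most, whereas rFsh 69 was the lowest of all 15 fish at 42.7 CPM. With all fish the log2 fold change was 0.36 for rFsh against saline (SE 0.12, edgeR adjusted p = 0.171) and -0.04 for rLh against saline (SE 0.12, adjusted p = 0.913). Leaving out rFsh 69, the lowest fish, favoured a larger difference. The log2 fold change for rFsh against saline was then 0.47 (SE 0.07, edgeR adjusted p = 0.00447). Over 28 alternatives the adjusted p ran from 0.00398 to 0.332 and passed in 2, both without this fish. The copy pdha1a (linkage group 13, 467778 to 474151), given beside it after the values were seen, was at 138, 137, 141, 137 and 141 CPM in the rFsh fish, 156, 145, 137, 145 and 139 CPM in the rLh fish and 152, 139, 146, 150.5 and 141 CPM in the saline fish. It differed little between fish, with a highest value 1.14 times the lowest and log2 fold changes of -0.07 after rFsh and -0.01 after rLh.

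The ratio of pdha1b to pdha1a reads, which removes any factor common to both genes in a fish, was 0.520, 0.491, 0.506, 0.498 and 0.302 in the rFsh fish. It was 0.328, 0.332, 0.341, 0.331 and 0.364 in the rLh fish and 0.351, 0.315, 0.329, 0.366 and 0.359 in the saline fish. The ratio was thus near 0.5 in 4 rFsh fish and between 0.302 and 0.366 in the other 11 fish, with nothing in between. These ratios were chosen after the values were seen and carry no test. For phosphofructokinase, pfkpa over pfkla was 1.04 to 1.47 in those 4 rFsh fish and 0.916 in rFsh 69, 0.781 to 1.05 in the rLh fish and 0.695 to 0.850 in 4 saline fish, with 1.10 in saline 68. Here the groups overlapped, since rFsh 64 lay below rLh 64 and saline 68. For ldha over ldhba the rFsh fish ran from 6.55 to 8.20, the rLh fish from 4.23 to 7.77 and the saline fish from 4.59 to 6.75, so all groups overlapped. The ratio of pklr to pkma was 0.901 in saline 68, against 0.347 to 0.425 in the other saline fish, while the rFsh fish ran from 0.273 to 0.634 and the rLh fish from 0.446 to 0.654.

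**Figure D3:**
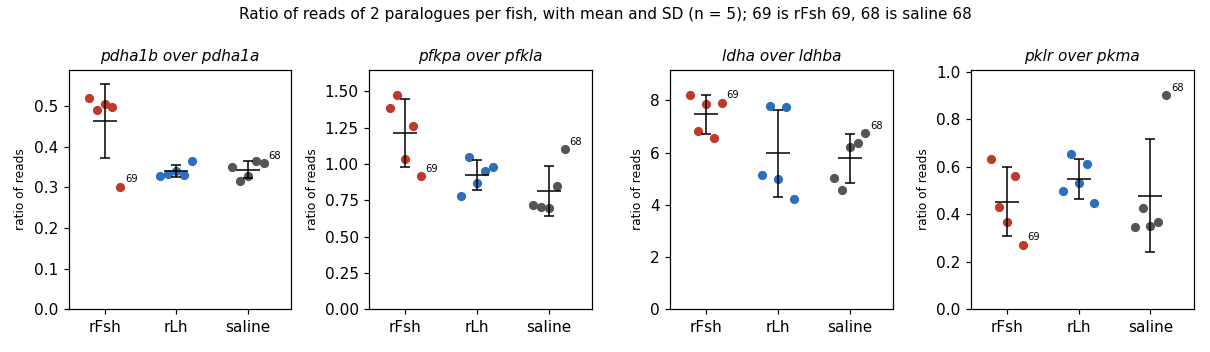
Ratio of the reads of 2 related genes in each fish (points), with the group mean and SD (n = 5 fish), for rFsh (red), rLh (blue) and saline (grey). For pdha1b over pdha1a, 4 rFsh fish lie near 0.5 and rFsh 69 at 0.302 lies with the rLh and saline fish.

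The other subunits of the complex did not share one direction. The gene pdhx, whose protein binds the E3 enzyme to the core, was at 156, 203, 155, 160.1 and 102 CPM in the rFsh fish, 123.1, 146, 140.5, 129 and 121 CPM in the rLh fish and 122.8, 96.7, 108, 121 and 133 CPM in the saline fish, given after its values were seen. The rFsh fish 61, 62, 64 and 68 lay above all other fish and rFsh 69 near the bottom of the series. Its log2 fold change of 0.41 for rFsh (SE 0.14, adjusted p = 0.172) became 0.53 without rFsh 69 (edgeR adjusted p = 0.0132). The adjusted p over 28 alternatives ran from 0.00562 to 0.344, past the threshold in 2, both without rFsh 69. The E3 enzyme itself, dihydrolipoamide dehydrogenase (dldh), was at 195, 179.8, 217, 228 and 186 CPM in the rFsh fish, 218, 186, 207, 215 and 208 CPM in the rLh fish and 227, 209.7, 225, 200.3 and 212 CPM in the saline fish. Its groups overlapped, as did those of the E1 beta gene pdhb, at 166 to 248 CPM in the rFsh fish, 191 to 247 CPM in the rLh fish and 167 to 270.2 CPM in the saline fish, and of the E2 gene dlat, at 113 to 136 CPM in the rFsh fish, 109 to 136 CPM in the rLh fish and 119.9 to 156 CPM in the saline fish.

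Of the 4 pyruvate dehydrogenase kinases, which phosphorylate E1 and halt the complex, pdk4 was at 106, 86.3, 116, 93.7 and 106 CPM in the rFsh fish, 94.9, 85.3, 89.9, 88.6 and 101 CPM in the rLh fish and 95.3, 127, 108, 99.7 and 88.4 CPM in the saline fish. Its groups overlapped, with a log2 fold change of -0.03 after rFsh and -0.17 after rLh. The gene pdk1 averaged 23.5 ± 4.08 CPM after rFsh, 19.6 ± 2.10 CPM after rLh and 17.9 ± 3.63 CPM in saline (SD, n = 5 each), with a log2 fold change of 0.39 for rFsh (SE 0.15, adjusted p = 0.212) and 4 of 5 rFsh fish above all saline fish. The genes pdk2a and pdk3a averaged higher after rLh than after rFsh, at 49.3 ± 9.502 CPM after rFsh, 62.5 ± 7.83 CPM after rLh and 59.3 ± 14.8 CPM in saline (SD, n = 5 each) and 24.9 ± 3.17 CPM after rFsh, 29.1 ± 3.94 CPM after rLh and 25.1 ± 1.45 CPM in saline (SD, n = 5 each).

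Counted by enzyme name, the citrate cycle had 15 of the 58 genes, which include cytosolic forms such as aco1 and mdh1ab. Their median log2 fold changes were -0.01 after rFsh and -0.07 after rLh. The change of every one of the 15 was below 0.5 in size in both. Citrate synthase (cs), which joins acetyl-CoA to oxaloacetate, was at 287, 260.0, 334, 336 and 268 CPM in the rFsh fish, 315, 240.0, 289, 309 and 300.1 CPM in the rLh fish and 329, 328, 309, 272 and 316 CPM in the saline fish. Its fish overlapped fully, with group means of 297 ± 36.3 CPM after rFsh, 291 ± 30.0 CPM after rLh and 311 ± 23.4 CPM in saline (SD, n = 5 each). Aconitase 1 (aco1), a cytosolic enzyme that also binds RNA when iron is scarce (linkage group 3, 6222992 to 6234564; its span overlaps another gene), was at 68.05, 87.8, 70.9, 76.9 and 52.9 CPM in the rFsh fish, 64.7, 78.2, 74.8, 73.9 and 60.5 CPM in the rLh fish and 60.3, 54.6, 60.2, 53.4 and 66.5 CPM in the saline fish. It averaged higher after both hormones, by 0.27 after rFsh (SE 0.12, adjusted p = 0.247) and 0.26 after rLh (SE 0.12, adjusted p = 0.364) on the log2 scale, with 1 fish below the highest saline fish in rFsh and 2 in rLh. Without rFsh 69, the lowest of all 15 fish, aco1 rose by 0.36 after rFsh (edgeR adjusted p = 0.0481). Over 28 alternatives the adjusted p ran from 0.0187 to 0.473 and passed in 2, both without that fish. Isocitrate dehydrogenase 2 (idh2), a mitochondrial enzyme that yields NADPH, was at 253, 240.3, 273, 272 and 219 CPM in the rFsh fish, 248, 226, 238, 234 and 231 CPM in the rLh fish and 258, 259, 262, 244 and 244 CPM in the saline fish. It was among the steadiest of the genes, and the NAD-linked subunits idh3a, idh3b and idh3g had log2 fold changes from -0.09 to 0.08 after rFsh and from -0.17 to 0.06 after rLh.

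Further round the cycle, 2-oxoglutarate dehydrogenase has the E1 genes ogdha and ogdhl. The gene ogdha was at 378, 318, 377, 355 and 245 CPM in the rFsh fish, 305, 267, 306, 323 and 320.0 CPM in the rLh fish and 313, 256, 280.2, 258 and 336 CPM in the saline fish. Here rFsh 69 was the lowest of all 15 fish while rFsh 61, 64 and 68 were the 3 highest, and the log2 fold change for rFsh was 0.21 (SE 0.11, adjusted p = 0.346). The gene ogdhl (linkage group 15, 11952496 to 11971827), which in mammals is best known from brain, was at 9.77, 12.3, 9.56, 9.79 and 13.2 CPM in the rFsh fish, 14.4, 24.5, 17.1, 13.8 and 12.5 CPM in the rLh fish and 11.6, 14.69, 12.004, 10.9 and 10.54 CPM in the saline fish. Only rLh 64 and rLh 66 lay above all rFsh and saline fish, and the other rLh fish overlapped them. Its log2 fold change was 0.46 for rLh against saline (SE 0.17, adjusted p = 0.344) and 0.28 without rLh 64.

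Succinyl-CoA ligase pairs 1 alpha subunit with a beta subunit for ADP or for GDP. The GDP-linked beta gene suclg2 (linkage group 4, 666763 to 803423) was at 45.3, 36.2, 39.7, 36.6 and 44.3 CPM in the rFsh fish, 35.7, 31.6, 38.7, 36.1 and 40.1 CPM in the rLh fish and 41.2, 45.3, 46.7, 43.8 and 42.5 CPM in the saline fish. All 5 rLh fish lay below all 5 saline fish, whereas the rFsh fish overlapped both. Its log2 fold change for rLh was -0.27 (SE 0.08, edgeR adjusted p = 0.344, DESeq2 adjusted p = 0.135). The ADP-linked gene sucla2 was at 155, 137, 152, 159.7 and 121 CPM in the rFsh fish, 154, 127, 150.2, 160.5 and 136 CPM in the rLh fish and 169, 144, 155, 131 and 148 CPM in the saline fish. It showed no such shift, with log2 fold changes of -0.04 after both hormones, and the alpha gene suclg1 ran over 82.1 to 111 CPM in the rFsh fish, 89.0 to 103 CPM in the rLh fish and 85.6 to 108 CPM in the saline fish. Malate dehydrogenase mdh1ab, the cytosolic enzyme of the malate-aspartate shuttle, was at 90.9, 65.9, 92.1, 89.6 and 108 CPM in the rFsh fish, 86.4, 62.02, 82.6, 67.6 and 97.7 CPM in the rLh fish and 91.6, 86.5, 88.3, 133 and 79.3 CPM in the saline fish. Apart from saline 67, the saline fish lay within the range of the treated fish.

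The genes of gluconeogenesis, which runs glycolysis backwards past its irreversible steps, had 4 members, all with a log2 fold change above 0 after rFsh and 3 of them after rLh. Mitochondrial phosphoenolpyruvate carboxykinase (pck2; linkage group 1, 21194718 to 21204719) was at 101, 82.4, 99.8, 89.6 and 59.2 CPM in the rFsh fish, 76.4, 61.1, 65.5, 82.1 and 72.8 CPM in the rLh fish and 84.2, 61.7, 70.1, 55.4 and 68.003 CPM in the saline fish. The rFsh fish 61, 64 and 68 lay above all saline and rLh fish, and rFsh 69 near the bottom, with a log2 fold change of 0.35 for rFsh (SE 0.14, adjusted p = 0.231). It rose by 0.45 without rFsh 69 (edgeR adjusted p = 0.0424). The adjusted p over 28 alternatives ran from 0.0341 to 0.396, past the threshold in 2, both without rFsh 69. The cytosolic form pck1 had log2 fold changes of 0.02 after rFsh and -0.29 after rLh. Fructose-1,6-bisphosphatase 2 (fbp2) was at 28.0, 49.5, 28.9, 32.6 and 43.4 CPM in the rFsh fish, 34.03, 47.0, 41.3, 46.0 and 37.8 CPM in the rLh fish and 26.2, 37.1, 25.8, 32.0 and 40.4 CPM in the saline fish. It averaged highest after rLh (log2 fold change 0.36, SE 0.17, adjusted p = 0.382), and its groups overlapped. Its relative fbp1a ran over 6.80 to 28.8 CPM in the rFsh fish, 8.90 to 23.3 CPM in the rLh fish and 7.36 to 10.8 CPM in the saline fish, with 1 fish far above the rest in each hormone group.

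Of the 3 genes outside the pathways, pkmyt1, on an unplaced sequence, was at 94.0, 76.2, 86.3, 77.9 and 59.4 CPM in the rFsh fish, 61.8, 66.7, 65.6, 76.0 and 65.8 CPM in the rLh fish and 58.5, 49.9, 71.6, 53.8 and 65.5 CPM in the saline fish. The rFsh fish 61, 62, 64 and 68 lay above all other fish. Its log2 fold change for rFsh was 0.39 (SE 0.12, adjusted p = 0.151), and it was 0.48 without rFsh 69 (edgeR adjusted p = 0.0247). The adjusted p ran from 0.0121 to 0.308 over 28 alternatives, of which 2 passed, both without rFsh 69. The genes pgam5 and dld had log2 fold changes of 0.02 and 0.12 after rFsh.

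Set directly against each other, rLh and rFsh fish overlapped in all 58 genes, where 1.54% of all tested genes had groups that did not. The lowest edgeR p-values belonged to ogdhl, higher after rLh with a log2 fold change of 0.59 (SE 0.17, adjusted p = 0.4), and to pdha1b, lower after rLh at -0.39 (SE 0.12, adjusted p = 0.4). The others at an unadjusted p below 0.05 were pdk3a and pfkmb, with log2 fold changes of 0.23 and 1.76, and pfkfb3, pfkpa and pkma, with -0.32, -0.29 and -0.19. The adjusted p-values of these 5 genes ran from 0.452 to 0.504. Without rFsh 69, pdha1b passed the threshold, with a log2 fold change of -0.50 for rLh against rFsh (adjusted p = 0.0343), 1 of 20 genes called (0.0945%). Over 28 alternatives its adjusted p ran from 0.0221 to 0.775 and passed in 2, both without rFsh 69. Only this direct test bears on whether the hormones differ.

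Of single fish left out, the 2 that stood apart on the first component raised the edgeR counts in rFsh against saline most. The count also depended on the tool, with 10 genes called by edgeR and 622 by DESeq2 over all 15 fish in that comparison. Without rFsh 69, edgeR called 998 genes in rFsh against saline (4.72% of those tested) and 6 of the 58 (10.3%). All 6 were called as higher, which 3.36% of all genes were, and they were aco1, pck2, pdha1b, pdhx, pfkpa and pkmyt1. In each of these 6, rFsh 69 was the lowest rFsh fish, so leaving this fish out favoured a larger difference. Without saline 68, edgeR called 633 genes (2.99%), with ldhba and pfkla, both lower (3.45%, beside 1.49% of all genes). In these genes saline 68 was likewise the lowest saline fish. Without both fish, a choice made after the data were seen, edgeR called 2854 genes (13.5%) and 12 of the 58 (20.7%). These comprised 9 higher genes (15.5%, beside 7.63% of all genes), the 6 above with ogdha, pklr and pkma, and 3 lower genes (5.17%, beside 5.89%), ldhba, mdh1b and pfkla. Beside these counts, rFsh 69 had the lowest summed spermatocyte and Leydig markers of its group and the highest sum of Sertoli markers, which is weighted to gsdf. Germ cell lists did not share a direction in rFsh 69, since its spermatid and sperm sum was the highest of the group and its spermatogonia sum lay within it. The fish saline 68 had the highest summed Leydig markers of its group. The part of these markers in the counts was not tested. In rLh against saline, leaving out both fish gave 2 called genes (0.00948%) and 0 of the 58, of which 14 had an unadjusted p below 0.05 (24.1%, beside 21.4% of all genes). The study took 4 fish per group, and the labels do not say which. In 1 such set of 12 fish, rFsh 62, rLh 68 and saline 68 were left out. The fish saline 68 stood apart on the first principal component, and rFsh 62 and rLh 68 on the second. The fish saline 67, which also stood apart on the second, was kept. This is therefore not a neutral choice of 4 per group. DESeq2 on these 12 fish called 3 of the 58 in rFsh against saline (ldhba, pfkla and pkma, beside 5.87% of all genes). It called 8 in rLh against saline (13.8%, beside 10.6% of all genes). These 8 were aco1, eno3, fbp2 and pklr, higher (6.90%, beside 4.05%), and ldha, ldhba, pfkla and suclg2, lower (6.90%, beside 6.53%). In edgeR, the same 12 fish gave 0 of the 58 in both, where 0.0425% and 0% of all genes were called, with 12 genes at an unadjusted p below 0.05 in rFsh against saline (beside 19.8% of all genes) and 15 in rLh against saline (beside 22.4%).

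**Figure D4:**
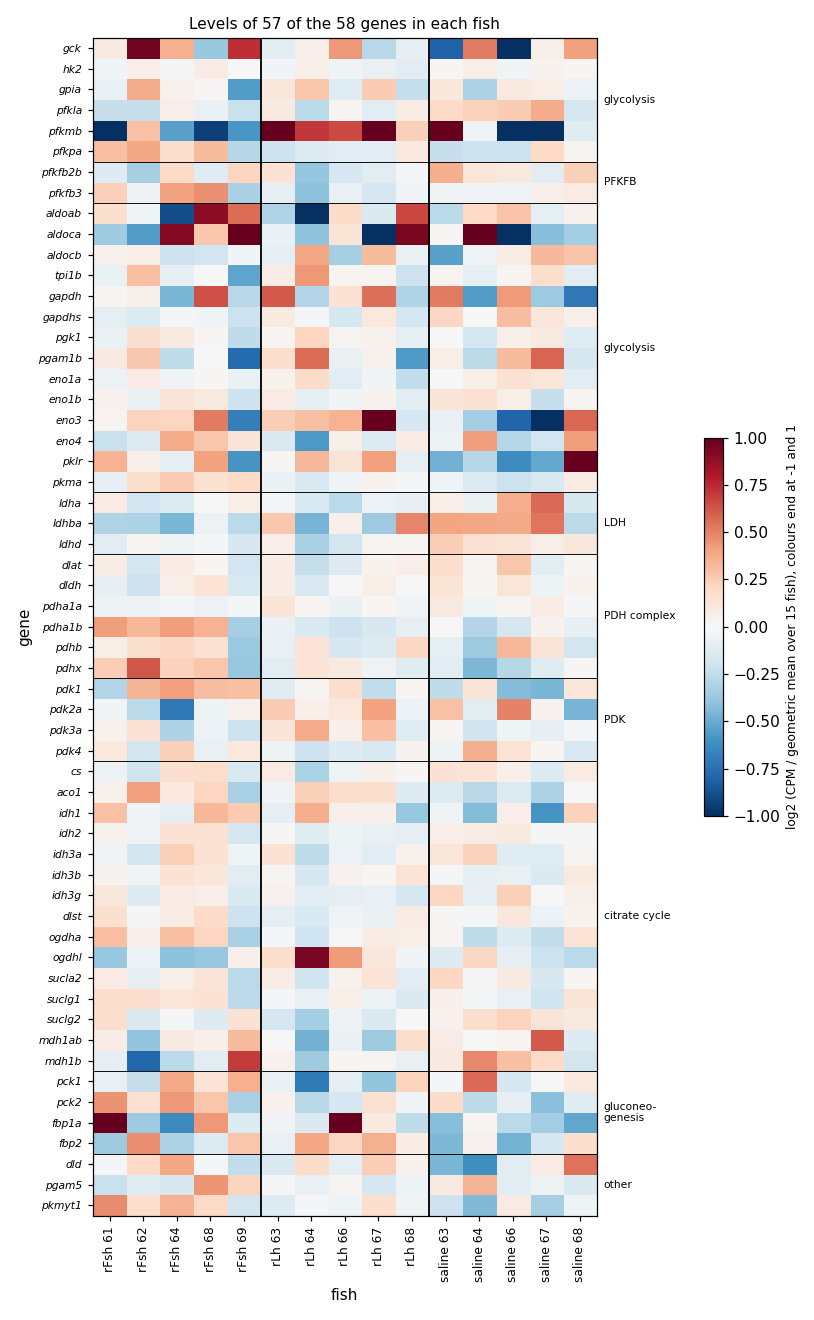
Level of 57 of the 58 genes (rows, in pathway order) in each of the 15 fish (columns, grouped as rFsh, rLh and saline), as the log2 ratio of its CPM to its geometric mean over the 15 fish; red is higher, blue lower, and colours end at -1 and 1. The column of rFsh 69 is mostly blue, and this fish was the lowest of its group in 27 of the 58 genes, and hk2 and pdha1a are nearly white in every fish.

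The columns of the heat map differ in how often a fish was the lowest of its group. The fish rFsh 69 was the lowest of its group in 27 of 58 genes (46.6%), beside 25.1% of all tested genes, and rFsh 68 in 2 (3.45%, beside 14.6%). Among the rLh fish, rLh 64 was lowest in 23 genes (39.7%, beside 26.9%) and rLh 68 in 22 (37.9%, beside 26.4%). In the saline group, saline 67 was lowest in 18 (31.0%, beside 19.1%) and saline 68 in 14 (24.1%, beside 25.7%). Genes of 1 library share its composition, so these shares are descriptions.

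The genes differed widely in how much they varied between fish of one group. The standard deviation within groups, on the log2 scale, was lowest for hk2 at 0.0477, lower than in all but 13 of the 21227 tested genes, and was 0.0548 for pdha1a. At the other end it was 1.10 for pfkmb, 0.760 for aldoca, 0.689 for gck and 0.587 for fbp1a. For genes with a mean of at least 10 CPM, the median was 0.198 over 51 of the 58 genes, beside 0.177 over all 13085 such genes. In all, 20 of the 58 genes kept within a factor of 1.5 over the 15 fish, hormones included, and 8 spanned more than a factor of 3.

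**Figure D5:**
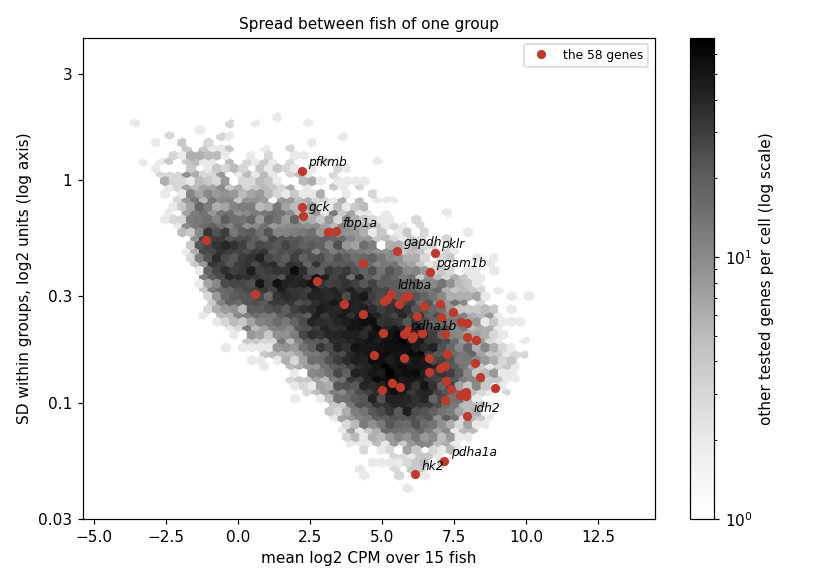
Standard deviation between fish of one group (log axis, log2 units) against mean level (log2 CPM) for the 58 genes (red) and the other tested genes (grey, darker where there are more). Named points include hk2 at 0.0477 and pdha1a at 0.0548, at the lower edge of the cloud, and pfkmb at 1.10, near its upper edge.

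Enzymes and carriers next to these pathways gave a similar picture. Of 79 tested genes in 11 lists, which cover succinate dehydrogenase, pyruvate and lactate transport, malic enzymes, the pentose phosphate pathway, glycogen, mitochondrial shuttles, glucose-6-phosphatase and regulators, edgeR called 0 in each of the 3 comparisons. At an unadjusted p below 0.05, 7 of the 79 were higher (beside 9.53% of all genes) and 4 lower (beside 7.63%) after rFsh, and 6 were higher (beside 5.89%) and 10 lower (beside 7.31%) after rLh, against saline. DESeq2 called 3 of them in rFsh against saline (gbe1b, sdhb and slc2a3a, beside 2.93% of all genes) and sdhb alone in rLh against saline (beside 0.221%). The gene sdhb, the iron-sulphur subunit of succinate dehydrogenase, which serves both the citrate cycle and the respiratory chain, was at 42.5, 39.7, 43.1, 42.8 and 44.3 CPM in the rFsh fish, 46.1, 40.8, 39.9, 38.6 and 41.3 CPM in the rLh fish and 50.8, 48.6, 47.7, 47.1 and 49.3 CPM in the saline fish. All 10 treated fish lay below all 5 saline fish, with log2 fold changes of -0.20 (SE 0.06) after rFsh and -0.24 (SE 0.06) after rLh. These passed in DESeq2 (adjusted p = 0.0230 and 0.0163) but not in edgeR (adjusted p = 0.157 and 0.344). The glycogen branching enzyme gene gbe1b had 58.7 to 84.2 CPM in the rFsh fish, 68.1 to 82.6 CPM in the rLh fish and 71.0 to 118 CPM in the saline fish, with saline 68 lowest of its group. The glucose transporter gene slc2a3a had 1.55 to 2.63 CPM in the rFsh fish, 2.29 to 3.02 CPM in the rLh fish and 2.62 to 8.65 CPM in the saline fish. These 3 genes were chosen after their values were seen.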

How the data were processed

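Testis RNA of 15 fish, 5 per group, was made into libraries with a modified SMARTseq2 protocol and sequenced as read pairs of 100 bp. The authors trimmed reads with cutadapt 3.4, checked them with FastQC 0.11.9, aligned them to the sole genome IFAPA_SoseM_1 with Subread 2.0.1 and assigned them to annotated genes in R 4.0.4. The deposited values are these raw counts per gene, with no replicates pooled, and 0 columns were left unused. Assignment was at default parameters, which do not use strand and leave out reads that fall on 2 genes. Counts of genes whose span overlaps another, as at aco1, mdh1b, mdh2, pfkla and pgam2, may therefore lack reads. Molecules were not tagged, and PCR copies of a molecule count as separate reads. The libraries held 50722658 to 109801527 counts. Coordinates are those RefSeq gives for the same assembly.

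Genes with at least 50 counts in at least 1 fish were tested, as in the study's filter. The 3 groups entered 1 fit of the edgeR 4.0.16 quasi-likelihood F test (TMM factors, two-sided, no covariate; R 4.3.3), and p-values were adjusted by Benjamini-Hochberg across every gene tested, with calls at an adjusted p below 0.05. The standard error of a log2 fold change was taken as its size divided by the square root of F. CPM use the TMM factors, and log values for the spread and the principal components used a prior count of 2. DESeq2 1.42.0, other factors and filters, the fish number as a block and leaving out fish were alternatives. Scripts were tested on simulated data. All p-values set a difference between group means against the spread between fish.

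The gene lists were chosen with earlier results of these data known, and so were the 58 genes. Values per fish are given for genes past the threshold in edgeR or DESeq2 over 15 fish, for the 5 genes with the lowest edgeR p in each comparison, and for the gene of each enzyme with the highest saline level, taken from reads with no correction for transcript length. Other genes given in full are named as chosen after their values were seen. The values of 1 of the 58 genes are not reported here, and it enters the counts and medians only. Which 4 fish per group the study analysed is not in the labels, so all 15 were used.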

Additional observations from a re-analysis of the deposited data

Results flagged for a closer look

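Among those of the 58 genes that are given in full, 4 had 1 fish far from the rest of its group, with a gap to the nearest fish of more than 0.71 of the whole range of the group. The gene pfkmb was at 20.7 CPM in saline 63, against 1.31 to 4.48 CPM in the other saline fish. The gene ldhba was at 32.8 CPM in saline 68, against 51.5 to 57.4 CPM in the others. The gene pdha1b was at 42.7 CPM in rFsh 69, against 67.5 to 71.7 CPM in the other rFsh fish, and mdh1ab was at 133 CPM in saline 67, against 79.3 to 91.6 CPM in the other saline fish.

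Over all 58 genes and 3 groups, 8 of 174 groups (4.60%) had such a fish, and chance alone gives about 1 in 20. The other 4 were pklr in saline 68, pdk1 in rFsh 61, suclg1 in rFsh 69 and fbp1a in rLh 66. The fish rFsh 69 and saline 68 had 2 each, and the remaining 4 belonged to 4 different fish.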

How the results depend on the processing

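In rFsh against saline, the 10 called genes became 622 with DESeq2, 6 with upper quartile factors, 5 with relative log expression factors, 4 with the filterByExpr filter, 1 with the older quasi-likelihood form and 3 with only the 2 groups in the fit. Without rFsh 62, rLh 68 and saline 68, DESeq2 called 1242 genes, and without rFsh 69 and saline 68, an alternative chosen after seeing the data, edgeR called 2854. Of the 58 genes, 0 were called over all 15 fish, and these 3 alternatives called 1 (DESeq2), 3 (DESeq2, 12 fish) and 12. In rLh against saline, the 0 called genes became 47, 2237 and 2, and DESeq2 with 12 fish called 8 of the 58. In rLh against rFsh, 0 became 135, 675 and 223, edgeR called 3 genes with the 12 fish, and 1 of the 58 was called by DESeq2 with 12 fish (ogdhl) and by edgeR without rFsh 69 and saline 68 (pdha1b). Leaving out each fish in turn gave 1 to 998 called genes in rFsh against saline, 0 to 2 in rLh against saline and 0 to 20 in rLh against rFsh, with 0 to 6, 0 to 0 and 0 to 1 of the 58. The highest counts came without rFsh 69 and without saline 68 (633), 20 genes were called without rFsh 61, and 1 to 6 without rFsh 64, rFsh 68, rLh 63, rLh 66, rLh 67, saline 63, saline 66 or saline 67. The median log2 fold change of the 58 genes then ran from -0.02 to 0.02 for rFsh, from -0.04 to 0.00 for rLh and from -0.06 to -0.02 for rLh against rFsh. The cause of these shifts was not tested. Of 420 alternative values for 15 named fold changes, 401 stayed on their side of the threshold, 19 newly passed it and none turned its direction. These 15 belong to the 5 genes with the lowest edgeR p in each comparison of the same fish, and the alternatives share most of those fish. An unchanged direction was therefore favoured by the choice and is a description only.

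Fish of different groups share some numbers, and no label says what a number marks. Correlations of deviations from the group means ran from -0.25 to 0.48 for same-numbered pairs and from -0.37 to 0.44 for other pairs. These ranges overlap, and the highest value was that of rLh 63 with saline 63. The correlations therefore cannot decide whether the numbers pair the fish. With the number as a replicate block, edgeR called 28 genes in rFsh against saline, 2 in rLh against saline and 12 in rLh against rFsh, with 0 of the 58 in each, and the median over the 58 became 0.0950 for rFsh and -0.129 for rLh against rFsh. Under the block, pfkla had a log2 fold change of -0.09 for rFsh against saline (edgeR adjusted p = 0.849, the highest of its 28 alternatives). The fish rFsh 61, rFsh 62 and rFsh 69 have numbers found in no other group, so each was fitted by its own block. Blocked values for rFsh, the medians included, therefore rest on rFsh 64 and rFsh 68 alone on the rFsh side. They cannot decide whether the fold changes over all rFsh fish would hold with fish paired by number.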

Other observations

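Genes beside the pathways that have not been described above gave the following values, chosen after they were seen. The glucose transporter gene slc2a12, a carrier that in mammals responds to insulin, was at 26.3, 55.1, 20.2, 122 and 16.99 CPM in the rFsh fish, 34.7, 24.96, 65.1, 93.1 and 29.6 CPM in the rLh fish and 14.5, 10.8, 9.72, 8.22 and 35.5 CPM in the saline fish. Its saline fish 63, 64, 66 and 67 lay below all treated fish, while saline 68 exceeded 3 rFsh fish and 3 rLh fish. The log2 fold change was 1.61 for rFsh (SE 0.57, edgeR adjusted p = 0.189) and 1.66 for rLh (SE 0.57, edgeR adjusted p = 0.344), neither past the threshold.

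Malic enzyme turns malate into pyruvate with a yield of NADPH or NADH. The cytosolic gene me1 was at 56.8, 65.5, 59.7, 56.9 and 39.4 CPM in the rFsh fish, 45.7, 50.3, 49.4, 45.0 and 48.0 CPM in the rLh fish and 46.3, 44.0, 44.7, 48.1 and 50.03 CPM in the saline fish. The rFsh fish 61, 62, 64 and 68 lay above all other fish and rFsh 69 was the lowest of all 15 fish, with a log2 fold change of 0.25 for rFsh (SE 0.10, edgeR adjusted p = 0.233). The mitochondrial gene me2 had a log2 fold change of 0.03 for rFsh. In the pentose phosphate pathway, which makes NADPH and ribose from glucose-6-phosphate, the isomerase gene rpia was at 87.4, 63.5, 85.5, 71.4 and 87.3 CPM in the rFsh fish, 88.4, 73.1, 76.2, 73.6 and 87.4 CPM in the rLh fish and 98.0, 109, 107, 122 and 69.6 CPM in the saline fish. The saline fish 63, 64, 66 and 67 lay above all treated fish and saline 68 lay among the lowest fish, with log2 fold changes of -0.35 for rFsh (SE 0.13, edgeR adjusted p = 0.202) and -0.34 for rLh (SE 0.13, edgeR adjusted p = 0.349). The carriers that bring pyruvate into mitochondria, mpc1 and mpc2b, had log2 fold changes of -0.08 and 0.01 for rFsh and -0.20 and -0.11 for rLh.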
